A study of Mus musculus with 6 samples.

Results

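Crystallins are the proteins that fill the fibre cells of the lens and give it its transparency and refractive power. Their transcripts were followed here through 6 mouse retina libraries, gene by gene, for 9 of the 32285 genes in the count table: Cryaa, Cryba1, Cryba2, Cryba4, Crybb1, Crybb2, Crybb3, Crygs and Cryab. The genes were chosen from these same counts, in which crystallins had already been seen to be high in 1 library, so that their levels by library, and the group difference built on them, are given as a description. All 9 passed the filter of at least 10 counts over the 6 libraries, as did 20021 genes in all.

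The libraries came from wild-type C57BL/6J mice at postnatal day 18 (PN18), and both groups had gone through oxygen-induced retinopathy (OIR). Pups and their mothers were kept in 75% O2 from PN8 to PN13, which prunes the central retinal vessels and is followed by neovascularization in room air. From PN13 the OIR-CIH group (3 libraries) breathed chronic intermittent hypoxia for 10 h per day, in 266 daily cycles of 135 s that each fell to 5% O2, and the OIR-Norm group (3 libraries) received the same gas flow at a constant O2 level. No library came from mice without OIR, so that the comparison is between 2 kinds of retinopathy and not with a healthy retina. Total counts ran from 26289905 to 38010151 per library. The labels describe 3 eyes per group, yet every library held at least 9197 counts of Xist, which is expressed in females, and at least 540 of the Y-linked Ddx3y, so that n below counts libraries and the number of animals in each is unknown. Since this held for all 6 libraries, no result could be given without them.

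Alpha-crystallins (Cryaa, Cryab) are small heat shock proteins that hold unfolding proteins in solution, whereas the beta- and gamma-crystallins are compact structural proteins built of Greek key folds. Cryaa, the beta-crystallins and the gamma-crystallins are best known as lens fibre products, although low expression in the neural retina and in Müller glia after injury is described for several of them. Cryab differs in being widely expressed outside the lens, in glia and muscle among other cells, and is induced by heat and other stress. It is therefore treated separately from the other 8.

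The 9 genes lie on 6 chromosomes, and 4 of the 6 beta-crystallins are neighbours on chromosome 5. On GRCm38 (GENCODE M21 gene models) Cryba4 (ENSMUSG00000066975) spans 112246493 to 112252518 on the minus strand and Crybb1 (ENSMUSG00000029343) spans 112255815 to 112269585 on the plus strand, so that they point away from each other across 3296 bases. Crybb2 (ENSMUSG00000042240; 113058258 to 113070117) and Crybb3 (ENSMUSG00000029352; 113075839 to 113081584) follow on the same chromosome, both on the minus strand and 5721 bases apart. Cryba1 (ENSMUSG00000000724) is on chromosome 11 at 77718615 to 77725283, minus strand, and Cryba2 (ENSMUSG00000006546) on chromosome 1 at 74889934 to 74893143, minus strand. Cryaa (ENSMUSG00000024041) is on chromosome 17 at 31677807 to 31681733, plus strand, Crygs (ENSMUSG00000033501) on chromosome 16 at 22805203 to 22811577, minus strand, and Cryab (ENSMUSG00000032060) on chromosome 9 at 50751325 to 50756636, plus strand. Some of these models overlap others: Cryab overlaps Hspb2 on the opposite strand, Cryaa an antisense gene, Cryba1 the gene Nufip2 and Crybb2 a processed pseudogene. The strand column kept by the counting is not stated, so how reads in the overlaps were assigned is unknown.

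The promoters of the 8 crystallins other than Cryab were searched for short motifs on both strands. The core of the Maf recognition element, TGCTGA, which reads TCAGCA on the other strand, is the kind of site bound by large Maf factors, which drive crystallin genes in lens fibres. It was present in the RefSeq windows (GRCm38.p6; 250 bases before to 50 after the gene start) of 7 of the 8 genes, Crybb2 being the one without it, and of 3 of the 7 other gamma-crystallins, against 19.5% of all 32851 windows. The heat shock element GAANNTTC, which reads the same on both strands, was in 0 of these 8 windows and in 0 of those of the 7 other gamma-crystallins, against 7.86% of all windows, and matches of the 2 motifs therefore did not overlap in them. With so low a share over all windows, 0 among so few genes does not set these genes apart. Cryab had no window among those searched, so the 8 cannot be set against it for this element. A match is a description of the letters and not a binding site. The 250 bases before the start are shown for Cryba1 and for both neighbouring pairs on chromosome 5, with Maf cores in capitals, since they let the motif-bearing promoters be set beside that of Crybb2:
Cryba1 (chr11:77725294-77725543, minus strand): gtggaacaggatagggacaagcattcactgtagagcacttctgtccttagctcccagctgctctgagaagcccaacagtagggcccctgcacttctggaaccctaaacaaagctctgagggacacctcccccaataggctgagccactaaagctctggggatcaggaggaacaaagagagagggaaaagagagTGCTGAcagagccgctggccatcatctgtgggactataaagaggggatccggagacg
Cryba4 (chr5:112252519-112252768, minus strand): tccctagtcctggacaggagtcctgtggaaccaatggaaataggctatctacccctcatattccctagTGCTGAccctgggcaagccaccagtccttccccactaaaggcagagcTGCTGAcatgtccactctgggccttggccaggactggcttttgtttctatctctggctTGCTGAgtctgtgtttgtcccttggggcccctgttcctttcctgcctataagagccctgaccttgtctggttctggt
Crybb1 (chr5:112255570-112255819, plus strand): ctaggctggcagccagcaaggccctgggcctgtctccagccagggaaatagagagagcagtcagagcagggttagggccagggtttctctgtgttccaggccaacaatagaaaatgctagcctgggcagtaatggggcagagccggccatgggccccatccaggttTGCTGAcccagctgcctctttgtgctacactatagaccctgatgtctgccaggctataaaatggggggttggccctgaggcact
Crybb2 (chr5:113070118-113070367, minus strand): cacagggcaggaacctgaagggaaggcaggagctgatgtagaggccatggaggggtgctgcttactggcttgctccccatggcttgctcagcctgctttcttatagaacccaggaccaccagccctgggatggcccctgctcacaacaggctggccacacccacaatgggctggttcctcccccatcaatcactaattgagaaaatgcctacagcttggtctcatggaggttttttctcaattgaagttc
Crybb3 (chr5:113081585-113081834, minus strand): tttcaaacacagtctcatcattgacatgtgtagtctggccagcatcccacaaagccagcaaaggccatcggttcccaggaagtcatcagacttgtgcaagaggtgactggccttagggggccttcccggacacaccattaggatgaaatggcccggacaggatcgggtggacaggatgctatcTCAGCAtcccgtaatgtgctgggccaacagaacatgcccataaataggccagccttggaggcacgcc
In Cryba1 the core began 57 bases before the gene start, in Crybb1 84 and in Crybb3 67 bases before it, the last on the other strand. Cryba4 held 3 of them, beginning 182, 135 and 77 bases before the start. In the windows of Cryaa, Cryba2 and Crygs a core began 108, 149 and 200 bases before the start. All these distances are from the RefSeq start. For Cryaa and Crygs, and slightly for Crybb1, that start lies inside the GENCODE gene model given above, and so does the core of Cryaa.

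The 8 lens-type crystallins were far higher in 1 library, OIR-Norm replicate 2, than in the other 5, and OIR-CIH replicate 2 came next for each of them. Their summed level, in TMM-scaled CPM (read counts divided by the library's total and by a trimmed-mean scaling factor, then put on a common scale), was 613.1 in OIR-Norm replicate 2 and 104.9 in OIR-CIH replicate 2. In the other libraries it was 32.2 and 21.4 (OIR-CIH replicates 1 and 3) and 36.5 and 31.6 (OIR-Norm replicates 1 and 3). The 17477 counts of the 8 genes in OIR-Norm replicate 2 made up 0.0632% of that library, against 0.00213% to 0.0106% of the others.

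**Figure D1:**
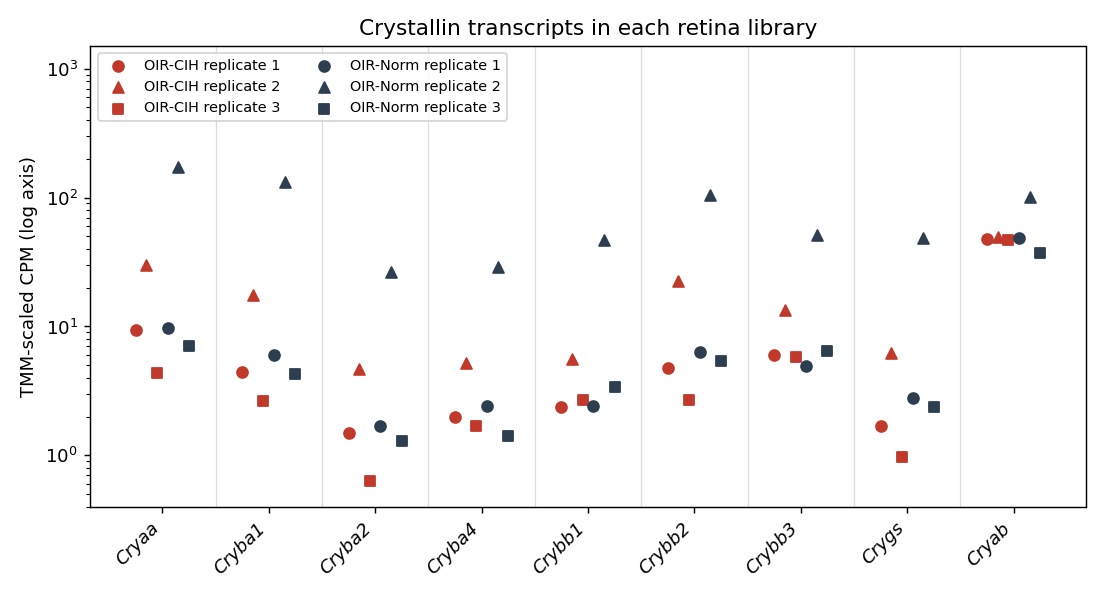
TMM-scaled CPM on a log axis of the 9 crystallins in each of the 6 libraries (red OIR-CIH, dark blue OIR-Norm, symbols for replicates 1 to 3). For all 9 genes the highest point is OIR-Norm replicate 2, at 26.4 to 173.0 CPM, and for each of the 8 on the left the next is OIR-CIH replicate 2; Cryab on the right stays between 37.5 and 49.1 CPM in the other 5 libraries.

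Cryaa, the alpha-crystallin chaperone best known from the lens, had 238, 864 and 166 counts in OIR-CIH replicates 1 to 3 and 302, 4933 and 224 in OIR-Norm replicates 1 to 3. In CPM this was 9.34, 30.0 and 4.39 against 9.80, 173.0 and 7.04. The OIR-Norm group thus held 1 library 18.5-fold above the median of the other 5 and a pair of libraries inside the OIR-CIH range. The means were 14.6 ± 13.6 CPM in OIR-CIH and 63.3 ± 95.1 in OIR-Norm (SD, n = 3 each), with medians of 9.34 and 9.80.

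Among the acidic beta-crystallins, which pair with basic partners in the lens, Cryba1 had 4.47, 17.4 and 2.62 CPM in OIR-CIH and 6.00, 132.2 and 4.27 CPM in OIR-Norm. It was the member most raised in OIR-Norm replicate 2, at 29.6-fold over the median of the other 5 libraries. Cryba2, the least abundant of the 9, had 1.49, 4.72 and 0.635 CPM in OIR-CIH and 1.69, 26.4 and 1.29 CPM in OIR-Norm. Its lowest value rested on 24 counts (exact Poisson 95% interval 15.4 to 35.7, counting error only), well below the 752 counts of its highest. Cryba4 had 2.0, 5.17 and 1.69 CPM in OIR-CIH and 2.43, 29.1 and 1.41 CPM in OIR-Norm. In all 3 genes OIR-Norm replicate 2 stood apart, by 14.5-fold to 29.6-fold over the median of the others, and the remaining OIR-Norm values lay within the OIR-CIH range, except Cryba4 in OIR-Norm replicate 3, which was below it.

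The basic beta-crystallins showed the same order at their top. Crybb1 had 2.39, 5.55 and 2.67 CPM in OIR-CIH and 2.43, 46.7 and 3.39 CPM in OIR-Norm, and its 5 lower libraries spanned a narrow range. Crybb2, the major beta-crystallin of the adult lens, had 4.79, 22.5 and 2.67 CPM in OIR-CIH and 6.36, 105.6 and 5.40 CPM in OIR-Norm. For Crybb2 the gap between OIR-CIH replicate 2 and the libraries below it was the widest of the members, 4.42-fold over the median of the other 4 without OIR-Norm replicate 2. Crybb3 had 6.00, 13.4 and 5.77 CPM in OIR-CIH and 4.97, 51.6 and 6.41 CPM in OIR-Norm. Of the 8 it varied least, with OIR-Norm replicate 2 at 8.59-fold over the median of the other 5. Crygs, the gamma-crystallin that stays expressed in the adult lens cortex, had 1.69, 6.24 and 0.979 CPM in OIR-CIH and 2.79, 48.6 and 2.39 CPM in OIR-Norm, again with 1 high library (20.4-fold).

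Cryab behaved otherwise. It had 1209, 1415 and 1756 counts in OIR-CIH and 1489, 2886 and 1192 in OIR-Norm, or 47.4, 49.1 and 46.5 CPM against 48.3, 101.2 and 37.5 CPM. In 5 libraries it was nearly level, at 45.8 ± 4.74 CPM (SD over 5 libraries), and in OIR-Norm replicate 2 it was 2.13-fold above their median. In OIR-CIH replicate 2, where Cryaa was 21.8 CPM above the median of the 4 lower libraries, Cryab was 2.10 CPM above its own, which is less than its SD over 5 libraries. In OIR-Norm replicate 2 the corresponding excess was 165 CPM for Cryaa and 54.3 CPM for Cryab. For Cryba1 and Crybb2 it was 127.8 and 100.5 CPM, also above Cryab. For the remaining members it was below Cryab, from 24.99 CPM (Cryba2) to 46.55 CPM (Crygs). In CPM, Cryab thus took part in the rise, and it differed in fold. Per kilobase of exon, Cryab had the highest level of the 9 genes by the median over libraries, 32.4 CPM per kb, followed by Cryaa at 4.61 and Cryba1 at 3.29. The levels of Crybb1 (3.08), Crygs (2.96), Crybb2 (2.92), Crybb3 (2.66) and Cryba4 (2.65 CPM per kb) came next, and Cryba2 was lowest at 1.33. From Cryaa downward, neighbours in this order differed by less than their spread over libraries.

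**Figure D2:**
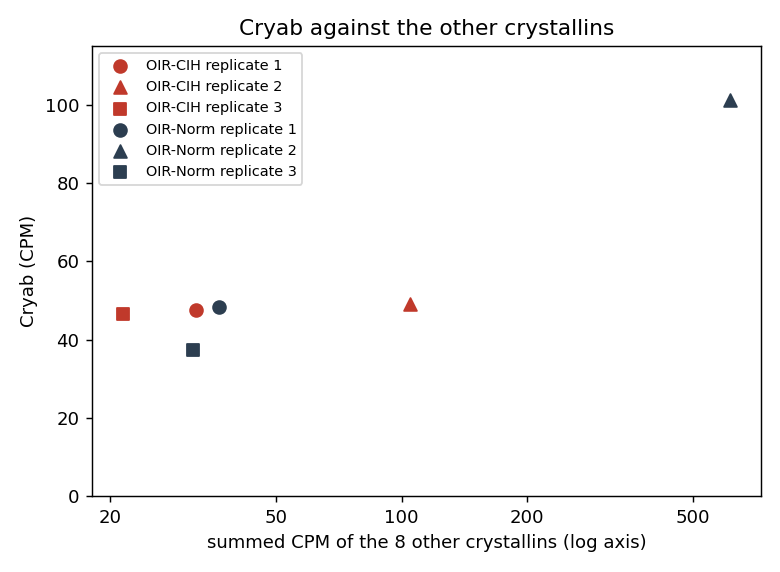
Cryab (CPM, linear axis from 0) against the summed CPM of the 8 other crystallins (log axis), 1 point per library (red OIR-CIH, dark blue OIR-Norm). From 21.4 to 104.9 CPM of the other crystallins Cryab stays between 37.5 and 49.1 CPM, and the single point at 613.1 CPM has Cryab at 101.2 CPM.

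The crystallins had a wider within-group spread than most genes. They were chosen after being seen high in 1 library, so this spread follows from that choice. The same holds for their place among genes high in 1 library, and both are given as a description. The within-group SD of log2(CPM + 0.5) had a median of 1.78 over the 8 crystallins, against 0.14 over the 20021 genes tested and 0.12 over the 14800 genes with a mean of at least 1 CPM; it was 0.52 for Cryab. The highest library exceeded the lowest by 10.4-fold for Crybb3 to 50.5-fold for Cryba1, and by 2.7-fold for Cryab. A level at least 4-fold above the highest of the other 5 libraries was found for 17 of the 14800 genes in OIR-Norm replicate 2, for 2 in OIR-CIH replicate 3 and for none in the other 4 libraries. Of these, 15 and 0 also had a mean of at least 1 CPM over the other 5 libraries, a condition added after seeing the data; Lgsn, Capn11, Krt5 and Krt15 passed the filter on the mean only through the library where they were high. The 17 included 7 of the 8 crystallins, Crybb3 being the exception at 3.85-fold, and 6 gamma-crystallins that are not among the 9. The remaining 4 were Bfsp1 and Lgsn, described below, Capn11 (5.09 against at most 0.903 CPM) and Lif (12.7 against at most 2.73 CPM), a cytokine that retinal glia release after injury; Capn11 and Lif were named after their values were seen.

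All 7 gamma-crystallins not chosen among the 9 were highest in CPM in OIR-Norm replicate 2. Crygb had 1.96, 8.36 and 4.31 CPM in OIR-CIH and 2.79, 91.9 and 4.90 CPM in OIR-Norm. Crygd had 1.77, 5.37 and 3.41 CPM in OIR-CIH and 2.53, 75.7 and 3.49 CPM in OIR-Norm. Cryge had 2.32, 5.44 and 4.63 CPM in OIR-CIH and 2.01, 67.1 and 3.36 CPM in OIR-Norm. In all 3 the OIR-Norm libraries other than replicate 2 fell within the OIR-CIH range, except Cryge in OIR-Norm replicate 1, which was below it. Cryga, Crygc and Crygf reached 44.3, 54.9 and 25.8 CPM in OIR-Norm replicate 2, with at most 5.48 CPM elsewhere, and Crygn, which is known from the retina, reached 2.07 CPM with at most 0.624 elsewhere. The coding sequences of Cryga to Crygf are 78.9% to 98.1% identical in pairs, whereas those of the 8 crystallins are 43.0% to 65.1% identical. Only uniquely mapped reads were counted, so reads matching more than 1 of Cryga to Crygf were left out. Their levels, and sums that hold them, may therefore be too low.

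Gamma-crystallins and the 8 did not rise in a fixed proportion. The summed CPM of the 7 gamma-crystallins was 0.3, 0.271 and 1.08 times that of the 8 in OIR-CIH replicates 1 to 3, and 0.368, 0.59 and 0.574 times in OIR-Norm replicates 1 to 3. OIR-CIH replicate 3, the library lowest in the 8, was the one with the most gamma-crystallin relative to them, and there Cryga reached 5.48 CPM against 0.863 and 2.43 CPM in the other OIR-CIH libraries. The excess of OIR-CIH replicate 2 over the median of the 4 libraries that are not a replicate 2 was 6.79% (Crybb1) to 17.3% (Crybb2) of the excess of OIR-Norm replicate 2 for the 8 crystallins. For Cryga to Crygf it was 0.974% (Crygf) to 5.44% (Crygb), for Crygn 12.9%, inside the range of the 8, and for Cryab 3.88%. For Cryga and Crygf OIR-CIH replicate 3, 1 of the 4 libraries, was above OIR-CIH replicate 2.

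**Figure D3:**
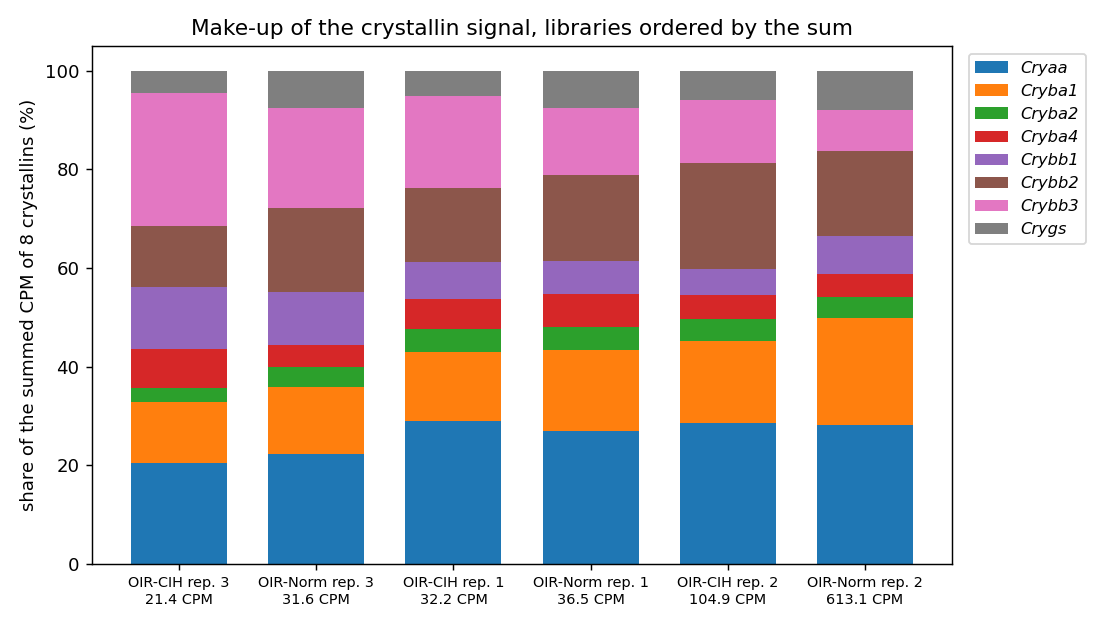
Share of each of the 8 crystallins in their summed CPM (stacked bars adding to 100%), libraries ordered from the lowest sum (21.4 CPM, OIR-CIH replicate 3) to the highest (613.1 CPM, OIR-Norm replicate 2). Crybb3 takes 26.9% of the lowest sum and 8.41% of the highest, and Cryba1 12.2% and 21.6%.

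The make-up of the crystallin signal also differed between libraries. Crybb3 accounted for 26.9% of the summed CPM of the 8 in OIR-CIH replicate 3, for 12.8% in OIR-CIH replicate 2 and for 8.41% in OIR-Norm replicate 2, and Cryba1 for 12.2%, 16.6% and 21.6%. Set against Cryaa, Crybb3 was at 1.31 times its CPM in OIR-CIH replicate 3, 0.911 times in OIR-Norm replicate 3 and 0.298 times in OIR-Norm replicate 2. Cryaa itself made up 20.5% to 29.0% in every library.

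Over the 6 libraries the 8 crystallins had closely matching profiles. Pearson's r of log2(CPM + 0.5) between pairs had a median of 0.98 over the 28 pairs (0.944 to 0.999). These are 6 points that share libraries and depth. Without OIR-Norm replicate 2 the median was lower, at 0.912 (0.731 to 0.997, 5 libraries), and the r values with genes outside the 8 fell further. The mean profile of the 8 had r = 0.917 with Cryab over 6 libraries and 0.335 over the 5, and r = 0.931 and 0.423 with the mean of the 7 other gamma-crystallins. Among the genes with a mean of at least 1 CPM, themselves left out, the 8 most like the mean profile were Dph1 (r = 0.997), Obsl1, Npr2, Tmem51, Cdk17, Swap70, Ncapg2 and Zer1 (r = 0.98). None of these is a crystallin, but the 8 had been left out and Crygn lay under the 1 CPM minimum. Pearson's r takes no account of the size of a change, and most of these genes moved little. Dph1, an enzyme of diphthamide synthesis, ran from 14.5 CPM in OIR-CIH replicate 3 to 17.5 CPM in OIR-Norm replicate 2. Those most like Cryab were Col2a1 (r = 0.996), Edn1, Itgb4, Cald1, Ccn1, Bfsp2, Shank1 and Sbk3 (r = 0.982). Ccn1, a matrix-associated immediate-early gene, had 22.8 CPM in OIR-Norm replicate 2 and 5.94 to 9.80 CPM elsewhere, and Edn1, which encodes the vasoconstrictor endothelin, 4.42 CPM and 1.10 to 1.92 CPM.

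Lens fibre genes that are not crystallins were read in the same libraries. Bfsp1 and Bfsp2, which encode the beaded filament proteins of lens fibres, had 14.7 and 7.51 CPM in OIR-Norm replicate 2 and at most 2.05 CPM each in the other 5. Lgsn (lengsin) had 4.49 CPM there and 0.291 to 0.824 CPM elsewhere. Mip, which encodes the main water channel of lens fibres, had 2.14 CPM there and 1.14 to 1.63 CPM elsewhere, a smaller step. All 10 lens fibre markers with counts were highest in OIR-Norm replicate 2, as were 4205 of the 20021 genes tested, and their summed CPM was 35.8 there against 5.12 to 8.29 in the other libraries. Lim2, also on that list, was not analysed here. At 0 counts in some libraries were Gja3 (OIR-CIH replicate 1 and OIR-Norm replicate 1) and Dnase2b (OIR-CIH replicate 2, OIR-Norm replicates 1 and 3). The part of lens RNA in the crystallin levels was not tested, and in bulk RNA more cells of a type and more RNA per cell cannot be told apart.

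**Figure D4:**
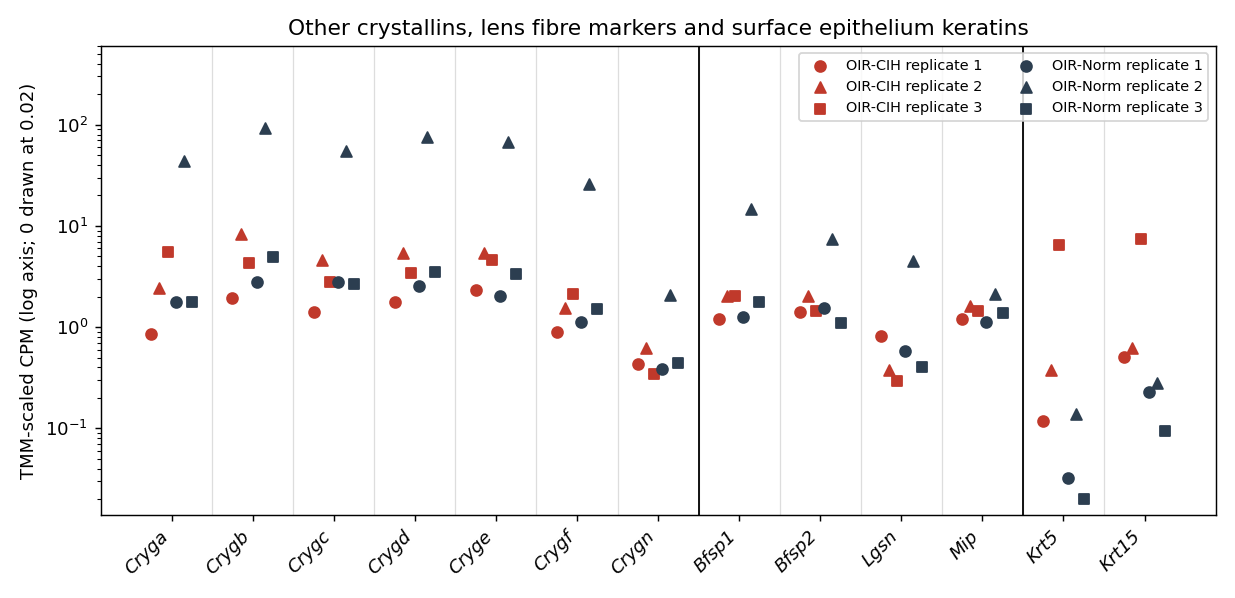
TMM-scaled CPM on a log axis of the 7 other gamma-crystallins, 4 lens fibre markers and 2 surface epithelium keratins in each library (red OIR-CIH, dark blue OIR-Norm; a level of 0 is drawn at 0.02). OIR-Norm replicate 2 is highest for the first 11 genes, by 7.20-fold over the next library for Bfsp1 and 1.31-fold for Mip, and OIR-CIH replicate 3 is highest for Krt5 (6.46 CPM) and Krt15 (7.46 CPM).

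Markers of other tissues near the retina followed different libraries. Corneal and surface epithelium markers summed to 15.4 CPM in OIR-CIH replicate 3, through the basal keratins Krt5 (6.46 CPM) and Krt15 (7.46 CPM), and to 0.314 to 1.66 CPM elsewhere, OIR-Norm replicate 2 included at 1.16. Aldh3a1, the corneal enzyme, was at 0.157 to 0.491 CPM. The 11 pigment epithelium markers, led by Ttr, Dct and Rgr, summed to 417 CPM in OIR-Norm replicate 2, inside the range of 306 to 679 CPM of the other 5. Retina markers were abundant in every library: Gnat1, the rod transducin subunit, had 8428 CPM in OIR-Norm replicate 2 and 8941 to 11550 CPM in the others, and Pde6b, a subunit of the rod phosphodiesterase, 1673 CPM and 1866 to 2181 CPM.

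Crystallin-named enzymes and relatives, most of which are enzymes unrelated to the lens crystallins and expressed in many tissues, did not follow the high library. Crym, a thyroid hormone-binding protein, had 98.2 CPM in OIR-Norm replicate 2, the lowest of its 6 values, which reached 135 CPM in OIR-Norm replicate 1. Cryz, a quinone oxidoreductase (26.3 CPM), and its relative Cryzl1 (43.7 CPM) were also lowest there. Crybg3 had 36.1 CPM there and 29.9 to 39.3 CPM elsewhere. Of the 8 genes on this list 1, Crybg1, was highest in that library, at 2.56 CPM against at most 2.14.

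Factors known to act on crystallin genes were flat by comparison. Pax6, the eye-field regulator, had 264 CPM in OIR-Norm replicate 2 and 241 to 295 CPM elsewhere, Prox1 203 CPM and 169 to 211 CPM, and Six3 111 CPM and 106 to 130 CPM. Maf itself had 23.9 CPM there and 22.2 to 26.6 CPM in the others. Sox1, which is needed for gamma-crystallin expression in the lens, had 8 counts in that library and 0 to 4 in the others. Pax6, Prox1, Six3 and Maf are also expressed in the retina itself. Maf and Sox1 were named after their values were seen.

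The small heat shock proteins, the family of Cryaa and Cryab, were mixed. Hspb6 had 82.8 CPM in OIR-Norm replicate 2 and 74.6 to 113.7 CPM elsewhere, and Hspb8 8.42 CPM and 6.41 to 9.06 CPM. Hspb1, the stress-induced relative, had 5.33 CPM there and 1.79 to 2.81 CPM in the other 5. Hspb2, whose gene overlaps Cryab on the opposite strand, had 1 to 6 counts. Of the wider heat shock response, Hsp90aa1 had 2038 CPM in OIR-Norm replicate 2, the lowest of its 6 values, Hspa8 699 CPM, also the lowest, and Hspa4l 377 CPM within a range of 314 to 395 CPM. Of the 12 genes on that list 1 was highest in OIR-Norm replicate 2. This was Bag3, named after its values were seen, with 17.0 CPM there and 6.59 to 12.7 CPM in the other 5.

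The group comparison asks whether intermittent hypoxia changed crystallin transcripts in the OIR retina. By edgeR's quasi-likelihood test over all genes, 63 of 20021 genes were called (0.315%; Benjamini-Hochberg adjusted p under 0.05 and absolute log2 fold change over 0.5), 42 lower and 21 higher in OIR-CIH, and 0 of the 9 crystallins were among them. At an unadjusted p under 0.05 there were 2682 genes, among them 4 of the 9 crystallins (Cryba1, Cryba2, Crybb1 and Crygs). The 3 OIR-CIH and the 3 OIR-Norm values overlapped for all 9, whereas the groups did not overlap for 18.4% of genes tested. Members had been chosen with these values known, and the fold changes that follow are a description.

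The log2 fold changes of OIR-CIH over OIR-Norm were all negative. Among the 8 they ran from -2.62 ± 1.0 (SE) for Crygs, with an edgeR adjusted p of 0.308, to -1.32 ± 0.70 for Crybb3, with an edgeR adjusted p of 0.44. Cryaa stood at -2.13 ± 0.98 (edgeR adjusted p = 0.373) and Cryba1 at -2.56 ± 1.05 (edgeR adjusted p = 0.336). The other values were -2.29 for Crybb1, -2.13 for Cryba2, -1.98 for Crybb2 and -1.89 for Cryba4. Cryab had -0.39 ± 0.26 (edgeR adjusted p = 0.557), from 47.7 ± 1.31 CPM in OIR-CIH and 62.3 ± 34.1 CPM in OIR-Norm (SD, n = 3 each). Their median over the 8 was -2.13 against -0.01 over all genes tested, and it rested on 1 library.

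Without OIR-Norm replicate 2 all 9 fold changes turned positive, from 0.15 for Cryab and 0.16 for Crygs to 0.77 for Cryaa, and the median over the 8 was 0.58 (lowest edgeR adjusted p of the 8, 0.628). Leaving out any one of the other 5 libraries kept all 9 negative, with a median over the 8 between -1.64 without OIR-CIH replicate 3 and -3.26 without OIR-CIH replicate 2. For Cryaa the value was -3.24 without OIR-CIH replicate 2 and -1.67 without OIR-CIH replicate 3. The direction of the group difference was thus that of OIR-Norm replicate 2 for every member. DESeq2, which withholds p where a single count lies far from the rest of its group, gave none for 8 of the 9 crystallins, Cryab being the exception, and none for 6 of the 7 other gamma-crystallins; 16 of the 20021 genes had no p in all.

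**Figure D5:**
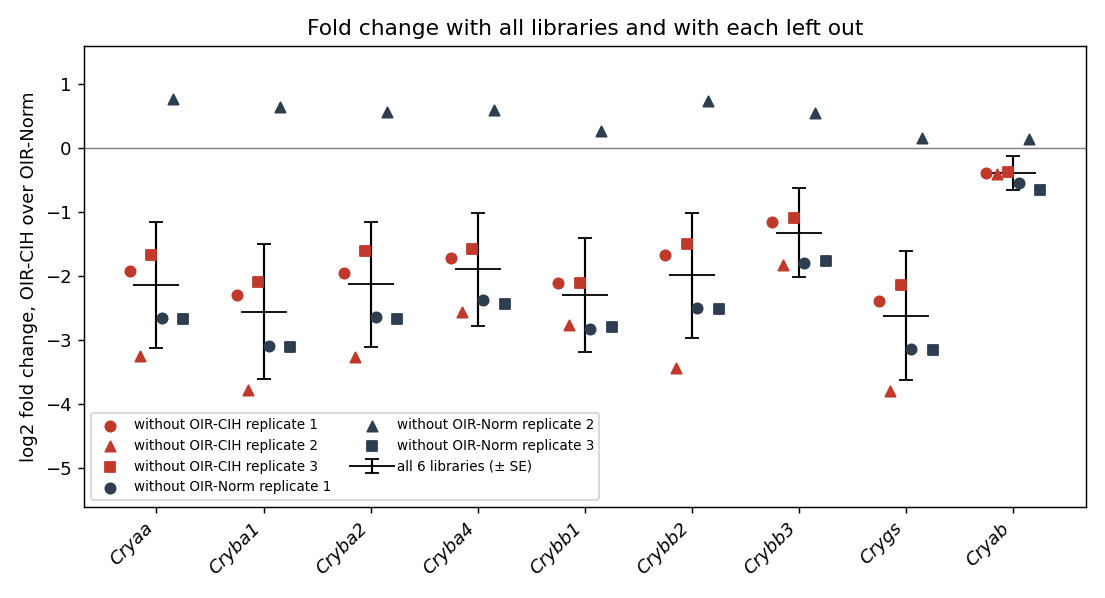
Log2 fold change of OIR-CIH over OIR-Norm for each crystallin by edgeR with all 6 libraries (black bar ± SE) and with each library left out (coloured symbols). All 9 are negative with all libraries (-2.62 to -0.39) and positive (0.15 to 0.77) without OIR-Norm replicate 2.

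Of the other gamma-crystallins and the lens fibre markers 0 of 7 and 0 of 10 were called by edgeR. Their median log2 fold changes were -2.53 and -1.01, and that of the gamma-crystallins was 0.27 without OIR-Norm replicate 2. The log2 fold changes of all 10 lens fibre markers were negative with all libraries, from -0.02 for Dnase2b and -0.09 for Mip to -1.90 for Lgsn, with Bfsp1 at -1.69 ± 0.75 (SE). Without that library Bfsp1 had 0.22 and Lgsn -0.08, the one of the 9 still tested that stayed negative, and Dnase2b fell under the count filter. Crystallin-named enzymes (0 of 8 called), crystallin gene regulators (0 of 11 tested of 13), small heat shock proteins (0 of 7), heat shock response (0 of 12), retina markers (0 of 12) and pigment epithelium markers (0 of 11) had medians from -0.04 to 0.12. The median of the pigment epithelium markers lay between 2 divided parts, with 5 higher and 6 lower in OIR-CIH. Their log2 fold changes ran from -0.88 (Mlana) to 0.80 (Lrat), both named after their values were seen. The corneal and surface epithelium markers (0 of 5 tested called) had a median of 3.99, with Krt5, Krt14 and Krt15 each highest in OIR-CIH replicate 3. Among astrocyte and Müller glia markers 1 of 10 was called: Gfap, the intermediate filament of reactive glia, with 61.5, 62.5 and 67.5 CPM in OIR-CIH and 158, 147 and 119 CPM in OIR-Norm, fell by 1.15 on the log2 scale (edgeR adjusted p = 0.000188). For Gfap the groups did not overlap and OIR-Norm replicate 2 lay between the other OIR-Norm libraries. The 3 most abundant genes on that list, Glul, Apoe and Rlbp1, had log2 fold changes of 0.15, 0.07 and 0.34 and were not called.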

How the data were processed

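Retinal RNA (250 ng per library) was sequenced with a stranded mRNA kit. The authors aligned reads with STAR 2.7.9a and deposited raw whole-number counts of uniquely mapped reads per gene, without normalization. The submitters' processing notes name GRCm38, while the study's methods name a later Ensembl release, and the strand column kept is not given in the sources used here. Gene symbols and coordinates came from GENCODE M21 (GRCm38), matched by gene identifier (32158 of 32285 had a symbol), and promoters from RefSeq (GRCm38.p6).

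Genes reaching 10 counts over the 6 libraries were tested with edgeR 4.0.16 in R 4.3.3 (TMM scaling, quasi-likelihood F test, 2 groups of 3, no covariate, Benjamini-Hochberg adjustment over all genes tested); SE is the size of the log2 fold change divided by the square root of F. Genes were called where the adjusted p lay below 0.05 and the log2 fold change beyond 0.5 in either direction. The script was tested on simulated counts. Levels are TMM-scaled CPM, with 0.5 CPM added on the log2 scale. Alternatives were DESeq2 1.42.0, limma-voom (limma 3.58.1), other scaling, filters and added values, a replicate block and leaving out each library.

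The 9 crystallins and the 12 gene lists were chosen with earlier results of these data known. Named are the crystallins, per list up to 5 called genes and the 3 with the highest mean CPM, and the 8 genes most like each of 2 profiles; others are marked where they appear or are held beside a result. A retina marker under this rule is not reported here. The labels do not say that libraries came from separate animals, so p-values measure the spread between libraries. Counting intervals cover counting error only. Over the genes with a mean of at least 1 CPM, same-numbered libraries did not deviate together (correlations 0.162, 0.143 and -0.238), so the numbers were not taken as pairs. That check is over many genes and cannot decide pairing for the crystallins. Those other than Cryab were highest in OIR-Norm replicate 2 and next highest in OIR-CIH replicate 2, which share a number.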

Additional observations from a re-analysis of the deposited data

How the results depend on the processing

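The group difference of the crystallins depended on 1 library. With 1 library left out in turn the log2 fold change ran, at its lowest and highest, over Cryaa (from -3.24 to 0.77), Cryba1 (from -3.78 to 0.65), Cryba2 (from -3.27 to 0.56), Cryba4 (from -2.56 to 0.60), Crybb1 (from -2.82 to 0.27), Crybb2 (from -3.43 to 0.74), Crybb3 (from -1.82 to 0.55), Crygs (from -3.79 to 0.16), Cryab (from -0.65 to 0.15), Cryga (from -3.22 to 0.82), Crygb (from -3.33 to 0.35), Crygc (from -3.27 to 0.12), Crygd (from -3.47 to 0.24), Cryge (from -3.06 to 0.64), Crygf (from -3.07 to 0.27) and Crygn (from -1.41 to 0.14). The highest of each is the value without OIR-Norm replicate 2, which was positive for all 16, with edgeR adjusted p from 0.585 to 0.962. Under every other alternative run (median-of-ratios scaling, DESeq2, limma-voom, the legacy quasi-likelihood fit, other filters, the replicate block and each other library left out) all 16 stayed negative, with a median over the 8 between -3.26 and -1.18. The number of the 9 crystallins called was 0 in each, except with the replicate number as a block, where 1 was called (Crygs, log2 fold change -2.24, edgeR adjusted p = 0.0339). That block also moved the genes called on the other lists from 1 to 6 (Gfap, Lrat, Rpe65, Rgr, Krt5 and Ttr) and all genes called from 63 to 68, of which 48 were shared. With it the SEs of the 8 were 0.287 (Crybb2) to 0.496 (Crybb1). The 2 highest libraries of the 8 share a number, but the labels do not say that numbers are pairs. Whether they are was not settled. DESeq2 called 135 genes in all, and gave p for Cryab alone of the 9 crystallins, so that its count of 0 covers 1 gene. With each library left out in turn the genes called ran from 29, when OIR-CIH replicate 1 was omitted, to 97, when OIR-Norm replicate 3 was, those on the other lists from 1 to 3 (without OIR-Norm replicate 1), and those among the 9 crystallins and the lens fibre markers stayed at 0. The median range of the 8 over the libraries was 4.81 on the log2 scale with 0.5 CPM added and 3.78 with 2 CPM added, and 2.19 to 4.81 with a library left out; the median r between them was 0.98 and 0.912 to 0.989. Causes of these changes were not tested. With 3 libraries per group and this spread, fold changes of this size carried SEs of 0.70 to 1.05, and the lowest levels rest on few counts (24 for Cryba2 in OIR-CIH replicate 3).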
